A study of Mus musculus with 6 samples.

Results

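The genes described here encode enzymes and regulators that make sterols and fatty acids. Members were the rows of the count table whose symbol equals 1 of 29 listed symbols, and each of the 29 was found once among the genes counted. They were placed in 4 steps, which were the mevalonate pathway to farnesyl diphosphate (7 genes), squalene to cholesterol (11 genes), the SREBP transcription factors with their control and sterol transport (6 genes), and the synthesis and desaturation of fatty acids (5 genes). mRNA of the frontal cortex was sequenced with the Illumina TruSeq kit from 3 wild-type (WT) C57BL/6 mice and 3 homozygous GFAP-IL6 mice on the same strain, all 3 months old. In GFAP-IL6 mice the promoter of Gfap, an astrocyte gene, drives a transgene for the inflammatory cytokine interleukin 6, and the WT mice carry no transgene. The model therefore makes the cytokine in astrocytes, from early life and along with Gfap promoter activity. Whole tissue was used, and fewer cells of a type cannot be told apart from less of an RNA per cell.

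Cells build cholesterol from acetyl-CoA through mevalonate, farnesyl diphosphate and squalene, and the brain makes nearly all of its own cholesterol because plasma lipoproteins do not cross the blood-brain barrier. Astrocytes supply cholesterol to neurons, and oligodendrocytes use large amounts for myelin. When sterols are scarce, the SCAP protein escorts SREBP precursors to the Golgi for cleavage, and the released factors switch on genes of the pathway, while INSIG proteins hold SCAP in the endoplasmic reticulum when sterols are plentiful. INSIG1 is itself a target of SREBP.

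The 6 libraries held 7559524 to 16877001 counts in genes, and each GFAP-IL6 library was shallower than each WT library. Counts of Il6 were 0, 2 and 0 in WT replicates 1, 2 and 3 and 12, 10 and 24 in GFAP-IL6 replicates 1, 2 and 3. Gfap was at 76.5, 123 and 84.2 CPM (counts scaled to library size) in the WT libraries and at 517, 646 and 870 CPM in the GFAP-IL6 libraries, so both genes stood higher in each library labelled as transgenic. Any pair of libraries differed by more than sampling noise, with a chi-square of 2.23 to 20.1 per degree of freedom over 15 pairs.

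Of the 29 members, 28 had enough counts to be tested, and 1 of them, Insig1, was lower in GFAP-IL6 than in WT cortex at an adjusted p under 0.05. No member was higher at that threshold, and none had an absolute log2 fold change over 1. Among all 15341 genes tested, 2.86% were called in either direction, 2.65% as higher and 0.209% as lower. Log2 fold changes of the members ran from -0.45 to 0.19, and their 95% intervals all lay between -0.70 and 0.42. At an unadjusted p under 0.05, 6 members were lower (Insig1, Hmgcs1, Sqle, Msmo1, Nsdhl and Insig2), or 21.4% of those tested, beside 9.37% of all genes. At the same threshold 0 members were higher, beside 11.1% of all genes.

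The fold changes of 21 members lay below 0 and those of 7 above it, or 75% below, beside 50.6% of all genes tested. The median log2 fold change was -0.089 over the members and -0.0038 over all genes. In 7 members (Acat2, Hmgcs1, Fdft1, Sqle, Nsdhl, Insig1 and Insig2) each GFAP-IL6 library was below each WT library, or 25% of those tested, beside 12.7% of all genes. The reverse held for 1 member, Tm7sf2, or 3.57%, beside 13.8% of all genes. The median by step was -0.19 for the mevalonate pathway, -0.096 from squalene to cholesterol, 0.071 for the SREBP group and -0.0005 for fatty acids. Single libraries moved these medians: the SREBP median was 0.0099 without GFAP-IL6 replicate 1 and 0.022 without WT replicate 2, and the mevalonate median was -0.28 without WT replicate 1. All 6 tested genes of the mevalonate pathway and 10 of 11 from squalene to cholesterol had fold changes below 0, while 4 of 6 in the SREBP group lay above it. These counts and medians are descriptions of genes that share libraries and regulators, and no test was made of them.

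**Figure D1:**
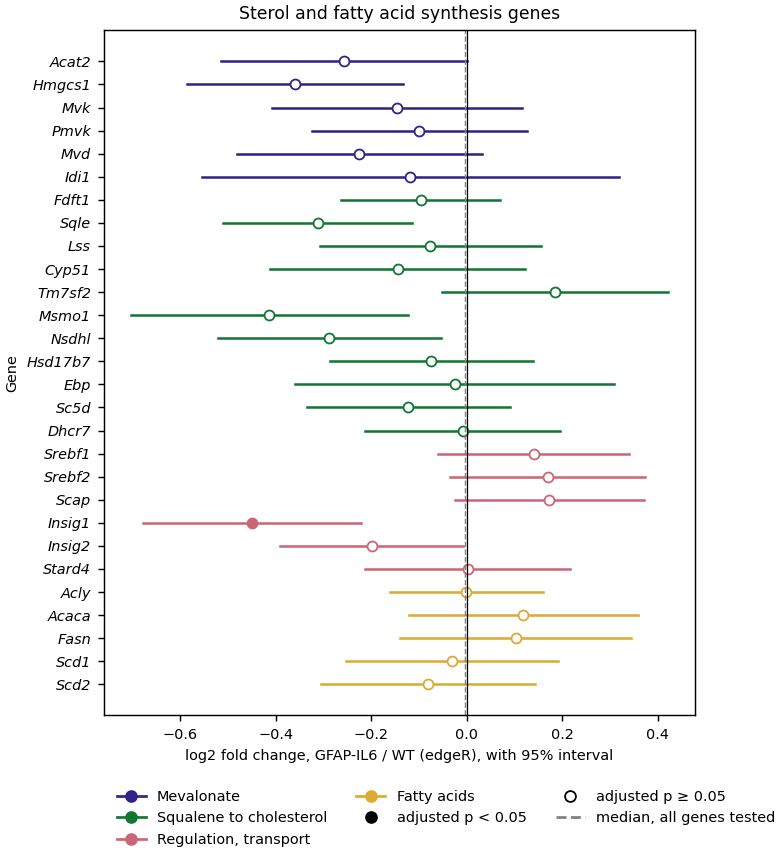
Log2 fold change of GFAP-IL6 over WT (x axis) for the 28 members tested (y axis), with 95% intervals as lines, colours for the 4 steps, filled circles for an adjusted p under 0.05 and a dashed line at the median of all genes tested. Insig1 is the single filled circle, at -0.45, and most genes of both sterol steps lie left of 0.

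Levels per length (TPM, counts scaled to gene length and library size) spanned a wide range among the members. The mean over the 6 libraries was 840 TPM for Scd2, the main stearoyl-CoA desaturase of the brain, 263 TPM for Hmgcs1, 158 TPM for Scd1, 131 TPM for Msmo1, 125 TPM for Srebf2 and 102 TPM for Acly. At the other end, Acaca was at 14.0 TPM, Idi1 at 8.64 TPM and Fdps at 1.55 TPM. Of the windows of 50 bases along their longest coding transcripts, 52.6%, 30.5% and 86.4% were also found in transcripts of other genes. Their low levels are therefore uncertain. Summed over the 18 genes of both sterol steps, the level was 896, 1055 and 1024 TPM in the WT libraries and 932, 855 and 877 TPM in the GFAP-IL6 libraries. WT replicate 1 therefore lay within the range of the transgenic libraries. Summed over the 5 fatty acid genes, the mean was 1191 ± 116 TPM for WT and 1207 ± 82.1 TPM for GFAP-IL6 mice (SD, n = 3 each), a difference smaller than the spread between libraries. Scd2 alone had means of 843 TPM in WT and 838 TPM in GFAP-IL6 mice, so this sum mostly reflects Scd2.

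**Figure D2:**
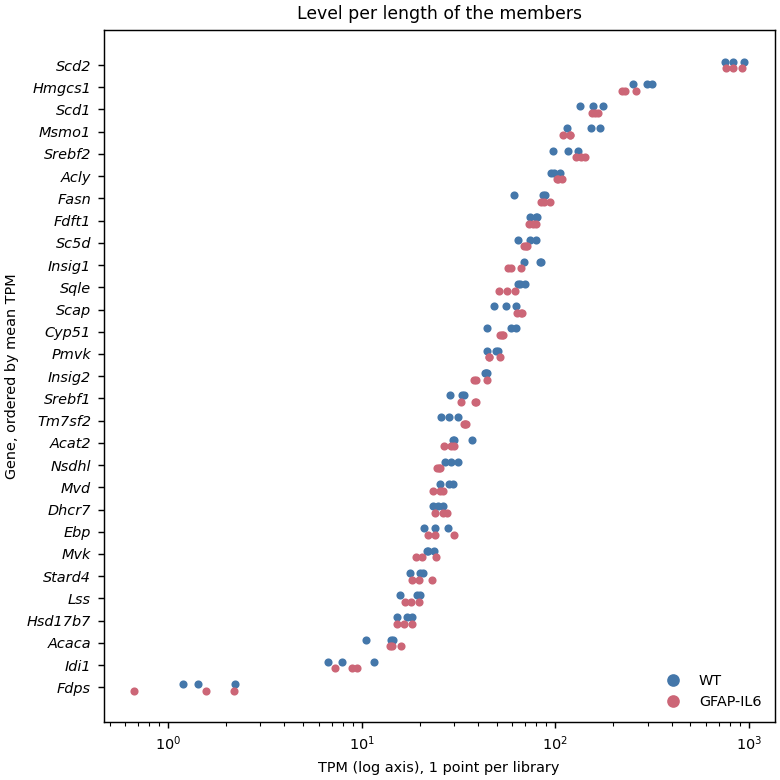
Level per length in TPM (x axis, log scale) of the 29 members (y axis, ordered by mean level), with 1 point per library, blue for WT and red for GFAP-IL6. The members span from 1.55 TPM for Fdps to 840 TPM for Scd2, and the groups overlap in most rows. Most of the Fdps transcript sequence is shared with other genes, so its level is uncertain.

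Promoters are shown for the members with the smallest p-values that had an entry, since most of these genes are known targets of SREBP. SREBPs bind sterol regulatory elements, often beside a CCAAT box, which the factor NF-Y binds. RefSeq promoters on GRCm38.p6 were matched for 23 of 29 members, and the 250 bases before each start were searched on both strands. The Hmgcs1 window (chr13:119690101-119690350, plus strand) and the stretch before Insig1 (chr5:28071162-28071362, plus strand, ending just before the first base of the annotated gene) are given 5′ to 3′ with capitals on matches to TCACNCCAC, CCAAT (or ATTGG, its other strand) and CACGTG.
Hmgcs1: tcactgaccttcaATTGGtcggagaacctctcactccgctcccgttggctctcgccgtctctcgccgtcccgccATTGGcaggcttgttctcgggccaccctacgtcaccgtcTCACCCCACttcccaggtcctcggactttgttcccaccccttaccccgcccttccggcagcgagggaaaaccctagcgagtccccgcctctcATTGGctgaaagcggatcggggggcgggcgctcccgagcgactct
Insig1: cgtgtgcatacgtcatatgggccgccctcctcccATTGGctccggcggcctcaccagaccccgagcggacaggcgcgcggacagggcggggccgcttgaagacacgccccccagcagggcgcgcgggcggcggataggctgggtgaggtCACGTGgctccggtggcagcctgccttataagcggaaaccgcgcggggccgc

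Distances are counted from the first base of each match to the RefSeq start, which for Insig1 lies inside the annotated gene, beyond the end of the printed stretch. Hmgcs1 held TCACCCCAC at 137 bases before the start and CCAAT boxes at 237, 176 and 45 bases. Insig1 held 1 CCAAT box at 216 bases and 1 CACGTG at 101 bases before its RefSeq start. Some members had more than 1 RefSeq start, and the boxes of Insig2 all lay before 1 of its starts (window chr1:121332590-121332839). The CCAAT boxes of Msmo1, Nsdhl and Insig2 are given with 10 bases on either side, each read on the strand that spells CCAAT.
Msmo1, chr8:64733724-64733748, minus strand: atccgcgcagCCAATgactggcgcc
Msmo1, chr8:64733660-64733684, minus strand: ttagcacggaCCAATcactgcacgg
Msmo1, chr8:64733619-64733643, minus strand: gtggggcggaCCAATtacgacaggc
Nsdhl, chrX:72918402-72918426, minus strand: cgttcccaaaCCAATgggaagcggg
Nsdhl, chrX:72918491-72918515, minus strand: atgattttgcCCAATgaggctagtc
Insig2, chr1:121332711-121332735, minus strand: gttagctctgCCAATtctctgaccc
Insig2, chr1:121332621-121332645, plus strand: tggaaggtgaCCAATggcaggggat
Insig2, chr1:121332604-121332628, minus strand: accttccacaCCAATctatattaaa

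CCAAT was found before 19 of the 23 matched members, or 82.6%, beside 37.5% of all genes with a promoter entry. Those 27025 genes outnumber the 15341 genes tested, so this background holds genes with too few counts to be tested here. No comparison with expressed genes alone was made. A gene was counted when any of its RefSeq starts had a match, so genes with several starts had more chances. TCACNCCAC was found before 1 member, Hmgcs1, beside 1.22% of all genes, and CACCCCAC, which shares its letters, before Hmgcs1 and Acat2, or 8.70%, beside 2.98%. CACGTG was found before 5 members (Hsd17b7, Sc5d, Dhcr7, Scap and Insig1), or 21.7%, beside 6.86% of all genes. The GC box GGGCGG stood before 20 members, or 87.0%, beside 35.4% of all genes, and TATAAA before 1 member, or 4.35%, beside 14.3%. CCAAT was present before members with lower values, such as Hmgcs1 and Insig1, and before Tm7sf2, Srebf1, Srebf2 and Fasn, whose fold changes lay above 0. Since 19 of the 23 matched members held it, its presence cannot speak to the direction of a change. A match is a run of letters and not a shown binding site.

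Insig1 encodes a protein that retains SCAP in the endoplasmic reticulum and promotes breakdown of the rate-limiting reductase of the pathway. It lies on chr5:28071363-28078662 (GRCm38, plus strand). Its level was 65.3, 84.6 and 80.5 CPM in WT replicates 1, 2 and 3 and 61.1, 53.0 and 54.7 CPM in GFAP-IL6 replicates 1, 2 and 3, with means of 76.8 ± 10.2 and 56.3 ± 4.31 CPM (SD, n = 3 each). Each GFAP-IL6 library was below each WT library, with WT replicate 1 close to GFAP-IL6 replicate 1. The log2 fold change was -0.45 ± 0.10 (SE), or 0.73 times the WT level, with an edgeR adjusted p = 0.0378. The call was held under 8 of 14 other settings. It was lost without WT replicate 3 (adjusted p = 0.111) and without GFAP-IL6 replicate 1 (0.0667), 2 (0.160) or 3 (0.222), all with edgeR. It was also lost with limma-voom (adjusted p = 0.0523) and with counts thinned to the smallest library (edgeR adjusted p = 0.0557). The log2 fold change stayed between -0.55 and -0.38 under all 14.

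Insig2, a related retention protein that SREBP does not drive in the same way, was at 46.1, 47.8 and 46.6 CPM in the WT libraries and at 38.2, 45.2 and 39.5 CPM in the GFAP-IL6 libraries. Its groups did not overlap, yet GFAP-IL6 replicate 2 came near the lowest WT library, and the log2 fold change of -0.20 ± 0.09 (SE) had an edgeR adjusted p = 0.228. Srebf2, which encodes the SREBP that mainly drives sterol genes, was at 229, 181 and 208 CPM in WT and at 241, 221 and 234 CPM in GFAP-IL6 libraries. The groups overlapped, and the log2 fold change of 0.17 ± 0.09 (SE) had an edgeR adjusted p = 0.325, with 0.083 without WT replicate 2 and 0.25 without WT replicate 1. Scap and Srebf1, whose product mainly drives fatty acid genes, had log2 fold changes of 0.17 and 0.14, with edgeR adjusted p = 0.301 and 0.404. Stard4, a carrier of sterol between membranes, had means of 36.6 ± 1.81 CPM for WT and 36.5 ± 4.07 CPM for GFAP-IL6 mice (SD, n = 3 each), and the 95% interval of its log2 fold change was -0.21 to 0.22.

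Hmgcs1, the cytosolic synthase that makes HMG-CoA, was at 286.7, 377.8 and 346.6 CPM in the WT libraries and at 286.6, 255.0 and 246.5 CPM in the GFAP-IL6 libraries. The highest transgenic library and the lowest WT library were thus nearly equal. The log2 fold change was -0.36 ± 0.10 (SE), with a 95% interval of -0.59 to -0.13 and an edgeR adjusted p = 0.0933. This gene passed the threshold with DESeq2, without a low-count filter and without WT replicate 1, where the log2 fold change was -0.46, and it was -0.27 without WT replicate 2. Of the windows of 50 bases along its longest coding transcript, 13.6% were also found in transcripts of another gene. Since the strand setting of the counting was not given, reads of overlapping genes cannot be told apart. Exons of another gene overlapped 12.1% of the exon bases of Hmgcs1 and of Tm7sf2, 13.2% for Scap and 18.3% for Fdft1. The share was highest for Fdps, at 26.7%, and was 9.2% for Idi1 and smaller for the other members.

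Acat2, which joins 2 acetyl-CoA molecules at the entry to the pathway, was at 26.3, 34.2 and 26.7 CPM in WT and at 24.6, 25.9 and 22.9 CPM in GFAP-IL6 libraries. The WT mean was raised by replicate 2, and the log2 fold change of -0.26 ± 0.12 (SE) had an edgeR adjusted p = 0.245, while without that library it was -0.12 (edgeR adjusted p = 0.615). Its value is uncertain, since 45.9% of its windows were shared with Acat3 and Tcp1. The kinases Mvk and Pmvk and the decarboxylase Mvd, which turn mevalonate into isopentenyl diphosphate, had log2 fold changes of -0.15, -0.10 and -0.22. The isomerase Idi1 was at -0.12, with the widest interval of this step (-0.55 to 0.32) and 30.5% of its windows shared. Fdps, which encodes farnesyl diphosphate synthase, had 13, 13 and 10 counts in the WT libraries and 12, 6 and 3 in the GFAP-IL6 libraries, below the filter, and was not tested. For Fdps 86.4% of windows occurred in transcripts of other genes, several of them predicted genes, and its level here is uncertain.

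**Figure D3:**
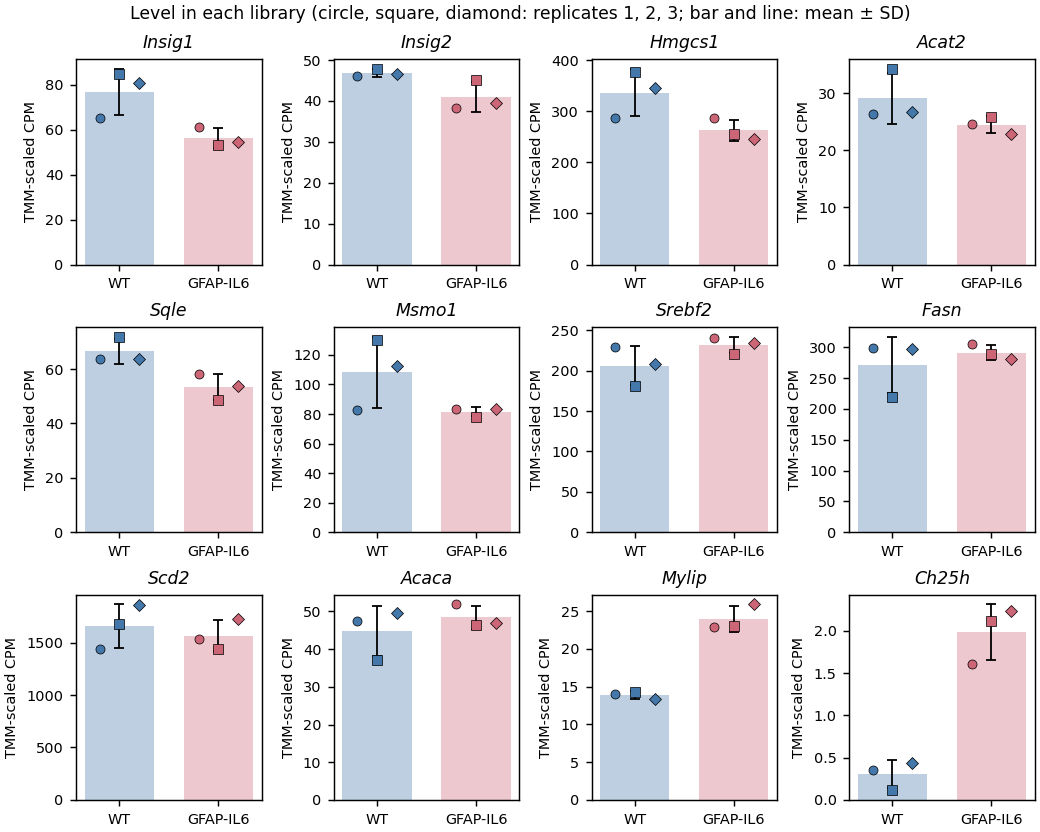
Level in TMM-scaled CPM (y axes, from 0) of 10 members and of Mylip and Ch25h in each library, with circles, squares and diamonds for replicates 1, 2 and 3, bars for the mean and lines for the SD of 3 libraries. Insig1 runs from 53.0 to 61.1 CPM in GFAP-IL6 and from 65.3 to 84.6 CPM in WT libraries, and WT replicate 1 is the lowest WT point for Insig1, Hmgcs1, Msmo1 and Scd2.

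Sqle, the epoxidase that oxidises squalene, was at 63.8, 71.9 and 63.7 CPM in the WT libraries and at 58.1, 48.6 and 53.7 CPM in the GFAP-IL6 libraries. The groups did not overlap, and none of its windows was shared with another gene. The log2 fold change was -0.31 ± 0.09 (SE), with a 95% interval of -0.51 to -0.11 and an edgeR adjusted p = 0.0959. It passed the threshold without a low-count filter and in the thinned counts.

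Msmo1, the sterol C4-methyl oxidase and the member of this step with the highest level per length, was at 82.5, 130 and 113 CPM in the WT libraries. In the GFAP-IL6 libraries it was at 83.1, 77.9 and 83.5 CPM. WT replicate 1 lay inside the range of the transgenic group, while the other two WT libraries lay above it. The log2 fold change was -0.41 ± 0.13 (SE) with an edgeR adjusted p = 0.123, and it was -0.57 without WT replicate 1, where it passed the threshold, and -0.26 without WT replicate 2 (edgeR adjusted p = 0.225). Nsdhl, the dehydrogenase that acts with it in removing the C4 methyl groups, had means of 22.7 ± 2.22 CPM for WT and 18.7 ± 0.43 CPM for GFAP-IL6 mice (SD, n = 3 each). Its groups did not overlap, and its log2 fold change of -0.29 ± 0.11 (SE) had an edgeR adjusted p = 0.169. Hsd17b7, the ketoreductase of that same sequence of reactions, was at -0.074.

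The other enzymes from squalene to cholesterol had smaller differences. Fdft1, which makes squalene, was at -0.096 with groups that did not overlap and 30.7% of its windows shared. The cyclase Lss was at -0.076, the desaturase Sc5d at -0.12, the isomerase Ebp at -0.025 and the last reductase Dhcr7 at -0.0079. The demethylase Cyp51 was at -0.14, and at -0.29 without WT replicate 1 (edgeR adjusted p = 0.0527) but -0.029 without WT replicate 2. Tm7sf2, a sterol C14 reductase, was the exception in direction, with means of 16.8 ± 1.49 CPM for WT and 19.2 ± 0.33 CPM for GFAP-IL6 mice (SD, n = 3 each). Its log2 fold change of 0.19 ± 0.11 (SE) had an edgeR adjusted p = 0.354.

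Scd2 was at 1442, 1676 and 1855 CPM in the WT libraries and at 1531, 1443 and 1729 CPM in the GFAP-IL6 libraries. The ranges overlapped almost fully, and the log2 fold change was -0.08 with a 95% interval of -0.31 to 0.14. Acaca, the carboxylase that makes malonyl-CoA, was at 47.5, 37.2 and 49.6 CPM in WT and at 51.9, 46.4 and 47.0 CPM in GFAP-IL6 libraries. Its log2 fold change of 0.12 ± 0.11 (SE) had an edgeR adjusted p = 0.564, and 52.6% of its windows were shared with the predicted gene Gm5182. Fasn, the fatty acid synthase, was at 299, 219 and 297 CPM in WT and at 305, 289 and 280.5 CPM in GFAP-IL6 libraries. WT replicate 2 alone was low for both genes, and without it their log2 fold changes were -0.0019 for Acaca and -0.033 for Fasn. Scd1 was at -0.031, and Acly, the lyase that releases cytosolic acetyl-CoA, was at -0.0005 with a 95% interval of -0.16 to 0.16.

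**Figure D4:**
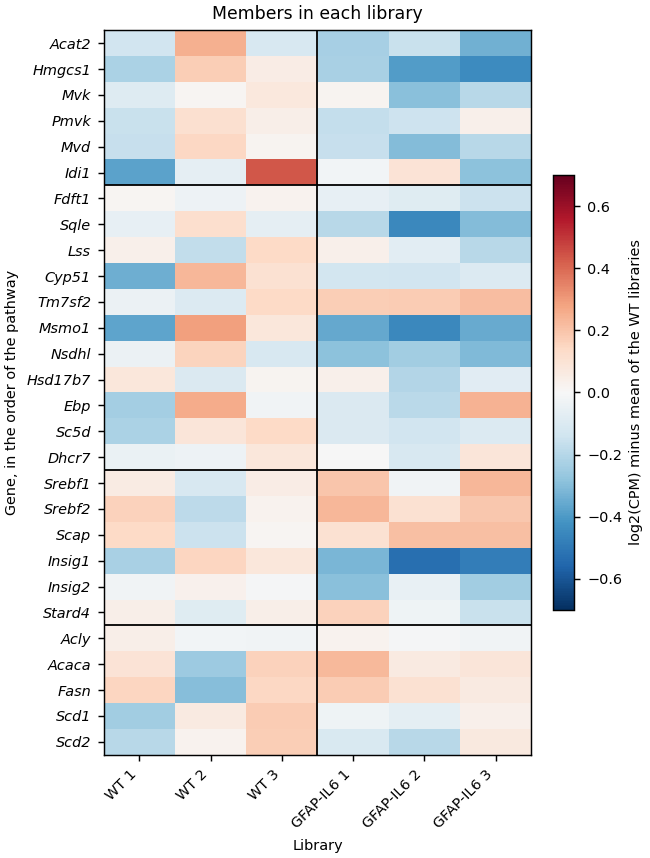
Colour map of log2 CPM minus the mean of the WT libraries for the 28 members tested (rows, in pathway order, lines between the 4 steps) in each library (columns), blue for lower and red for higher. Insig1, Hmgcs1, Sqle, Msmo1 and Nsdhl are blue across the GFAP-IL6 columns, and WT replicate 1 is also blue for Hmgcs1, Msmo1, Cyp51 and Insig1.

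The lists of other genes of these pathways held 28 genes, all tested, of which 2 were called, both higher. Mylip, a ubiquitin ligase that targets lipoprotein receptors and is driven by the oxysterol-sensing LXR factors, was at 14.0, 14.3 and 13.4 CPM in the WT libraries and at 22.9, 23.0 and 25.9 CPM in the GFAP-IL6 libraries. Its groups were well apart, and Mylip rose by 0.78 ± 0.11 (SE) on the log2 scale, with an edgeR adjusted p = 0.000956. Ch25h, the enzyme that makes 25-hydroxycholesterol and is induced in immune cells, had 4, 2 and 7 counts in the WT libraries and 18, 16 and 20 counts in the GFAP-IL6 libraries, although the latter were shallower. Ch25h rose 6.46-fold (95% interval 3.43 to 12.2, edgeR adjusted p = 0.00296), from few counts. In the fatty acid list, 0 of 14 genes passed the threshold with edgeR, and 1 higher and 1 lower gene had an unadjusted p under 0.05. The smallest p-values there were those of Mlxipl, a carbohydrate-responsive factor (log2 fold change 0.68, edgeR adjusted p = 0.105), Thrsp, a lipogenic protein (-0.47, 0.169), and Acacb, a mitochondrial acetyl-CoA carboxylase (0.51, 0.285). Thrsp passed the threshold in edgeR without a low-count filter (-0.47, adjusted p = 0.0286) and without WT replicate 1 (-0.63, adjusted p = 0.0299). The median log2 fold change was 0.11 in the sterol list and 0.0058 in the fatty acid list.

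Markers of cell types that make or use these lipids were set beside the members. For microglia, 7 of 8 markers were called higher, with a median log2 fold change of 0.84, and their summed level was 380 to 469 CPM in WT and 768 to 881 CPM in GFAP-IL6 libraries. For endothelial cells, 4 of 6 were called higher, with a median of 0.68 and a summed level of 121 to 140 CPM in WT and 201 to 243 CPM in GFAP-IL6 libraries. Ch25h and Mylip moved in the direction of these lists, whose part in that result was not tested.

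All 10 markers of myelinating oligodendrocytes had fold changes below 0 with a median of -0.21, and 0 were called by edgeR, nor had any an unadjusted p under 0.05. Their summed level was 3430, 6366 and 5719 CPM in the WT libraries and 4496, 3465 and 5422 CPM in the GFAP-IL6 libraries, so that WT replicate 1 was the lowest of all 6. WT replicate 1 was also the lowest WT library for 15 of 28 members, or 53.6%, beside 37.4% of all genes tested. The part of myelin in the members' values was not tested. None of the 7 astrocyte, 4 oligodendrocyte precursor, 8 neuron or 7 striatum markers was called, with median log2 fold changes of 0.040, 0.15, -0.064 and -0.44. At an unadjusted p under 0.05 in edgeR, 2 astrocyte, 1 precursor and 1 striatum marker were higher, and 3 neuron and 1 striatum marker were lower. Summed astrocyte markers were at 5526 to 6886 CPM in WT and 6092 to 7126 CPM in GFAP-IL6 libraries, and summed neuron markers at 7640 to 8166 and 6670 to 7674 CPM. Summed striatum markers were at 212, 384 and 212 CPM in the WT libraries and at 225, 275 and 237 CPM in the GFAP-IL6 libraries, and WT replicate 2 stood apart. That library was the highest WT library for 11 of 28 members, beside 41.5% of all genes tested. It was the lowest for 10 of 28 members, or 35.7%, beside 35% of all genes. Acat2, Hmgcs1, Msmo1 and Cyp51 were among the former and Acaca and Fasn among the latter. Without WT replicate 2 the fold changes of 24 of 29 members lay below 0, and the median log2 fold change of all genes was -0.0028. In that fit 1 member, Insig1, was called by edgeR, beside 3.27% of all genes. The part of tissue from the striatum in these values was not tested. Summed choroid plexus markers were at 3.22, 17.5 and 606 CPM in the WT libraries and at 13.1, 59.0 and 3.68 CPM in the GFAP-IL6 libraries, and WT replicate 3 stood apart. Of its 5 markers 3 were tested and 0 called by edgeR, with 2 lower at an unadjusted p under 0.05 and a median log2 fold change of -2.15. Without WT replicate 3, the fold changes of 18 of 29 members lay below 0, and the median log2 fold change of all genes was -0.0028. In that fit 0 members were called by edgeR, beside 2.23% of all genes.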

How the data were processed

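Poly(A) mRNA libraries (TruSeq) of 6 samples were sequenced and, by the study's methods, aligned by the authors with STAR 2.4 to mm10 and counted with featureCounts on a GENCODE mouse annotation. The submitters' processing notes name build hg19 instead, and the strand setting was not given in the sources used here. The deposited values are raw counts per gene, not normalized, and each of the 6 count columns matched 1 sample title.

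Samples were grouped by genotype. edgeR 4.0.16 (R 4.3.3) fitted all genes passing filterByExpr, with TMM scaling and the quasi-likelihood F-test, and p-values were adjusted by Benjamini-Hochberg over all 15341 genes. A gene was called at an adjusted p under 0.05. SE and 95% intervals came from the F statistic. CPM were scaled by TMM, and TPM used the table's length column. Replicates were 3 separate mice per group, too few for an exact permutation test of a single gene, whose smallest two-sided p is 0.1. The scripts' fits were tested on simulated data. Alternatives were DESeq2 1.42.0, limma-voom 3.58.1, other scalings and filters, thinning, a replicate block and leaving out each library.

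Members, steps and lists were chosen with earlier results of these data known. Every library value is given for called members and, per step, for the 2 smallest p-values and the highest TPM. Of the other pathway genes, called ones are named and, if fewer than 3, the 3 smallest p-values per list. A gene that this rule names is not reported here. Other genes were named after their values were seen, as were the motifs searched, all of which are reported. Positions come from GENCODE M21 (GRCm38, the build of mm10) and promoters from RefSeq on GRCm38.p6. Shared windows of 50 bases were counted on the longest protein-coding transcript, a choice made after the value of Fdps on its longest transcript was seen.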

Additional observations from a re-analysis of the deposited data

How the results depend on the processing

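The count of members called was 1 in the analysis reported, and it was 2 with DESeq2 (Hmgcs1, Insig1), 0 with limma-voom, 4 without a low-count filter (Hmgcs1, Insig1, Msmo1, Sqle) and 1 in the thinned counts (Sqle). In the same order, 2.86%, 2.27%, 2.76%, 5.1% and 2.63% of all genes fitted were called. Leaving out each library gave 0 to 3 members, in fits with fewer samples. There were 3 (Hmgcs1, Insig1, Msmo1) without WT replicate 1 and 0 without WT replicate 3 or any 1 of the GFAP-IL6 libraries. Of all genes, 6.83%, 3.27% and 2.23% were called without WT replicates 1, 2 and 3. The share was 1.95%, 1.81% and 1.2% without GFAP-IL6 replicates 1, 2 and 3, so calls rose and fell over all genes too. The median log2 fold change of the members stayed below 0, at -0.15 to -0.054 when each library was left out, the lowest without WT replicate 1. The other pathway genes called were 1 in the thinned counts, where Ch25h was not tested, 3 without a low-count filter and without WT replicate 1, where Thrsp was added, and 2 otherwise, and Mylip was called under all 14 alternatives. Over all genes, 187 (without GFAP-IL6 replicate 3) to 1154 (without a low-count filter) were called.

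Deviations of same-numbered libraries correlated at 0.0996, 0.0147 and 0.0211. Differently numbered libraries were not set beside them, so a pairing by replicate number was neither shown nor excluded. With a replicate block, 1 member (Insig1, edgeR adjusted p = 0.0390) and 2 other pathway genes were called, and Stard4 was at -0.0067. Over all genes, 750 were called with the block and 439 without it.

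Members with fold changes near 0 changed sign. Stard4 was at -0.0034 with DESeq2, -0.00062 without a filter and -0.051 when thinned, and Acly at 0.0063 with upper-quartile scaling, 0.0023 with a mean CPM of at least 1 and 0.014 when thinned. Leaving out each library gave ranges of -0.092 to 0.077 for Stard4, -0.014 to 0.023 for Acly, -0.16 to 0.12 for Ebp, -0.0019 to 0.20 for Acaca, -0.033 to 0.18 for Fasn, -0.27 to 0.13 for Idi1, -0.053 to 0.039 for Dhcr7, -0.14 to 0.061 for Scd1, -0.17 to 0.0068 for Scd2 and -0.014 to 0.061 for the fatty acid median. It also gave -0.28 to -0.15 for the mevalonate median, 0.0099 to 0.097 for the SREBP median, -0.32 to -0.12 for Acat2, -0.57 to -0.26 for Msmo1, -0.29 to -0.029 for Cyp51 and -0.63 to -0.29 for Thrsp. The cause was not tested. Few counts limit Fdps and Ch25h, at no more than 20 in a library. For Fdps, 86.4% of windows were also found in transcripts of other genes, and the part of this in its counts was not tested.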
